A study of Rattus norvegicus with 8 samples.

Results

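Transcripts of 9 genes of mitochondrial fatty acid oxidation and its nuclear receptors were measured in whole ovaries of immature rats. The genes are the receptors Ppara and Pparg, the carnitine palmitoyltransferases Cpt1a and Cpt2, the acyl-CoA dehydrogenases Acadm, Acadl and Acadvl, and Hadha and Hadhb, which encode the alpha and beta subunits of the mitochondrial trifunctional protein. They were taken by name, as every non-control probe whose gene name on the array was one of these symbols. This gave 10 probes, 2 for Hadha and 1 for each other gene, among 26214 gene names on the array. Each of the 10 passed the background filter on every one of the 8 arrays and entered the test.

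The study asked how a gonadotropin injection changes transcripts of the ovary. Female rats received, under the skin at 26 days of age, either 0.2 ml of albumin phosphate buffer (4 arrays labelled control) or 50 IU of pregnant mare serum gonadotropin, PMSG, in that volume (4 arrays labelled PMSG). PMSG is a hormone preparation with mainly follicle-stimulating activity. Ovaries were removed 48 h later, at 28 days of age, and their RNA was labelled with Cy3 and hybridised to 1-colour Agilent rat arrays. The strain, and whether each array holds RNA of 1 animal, are not given in the sources used here, so p-values measure the spread between these samples, which may be technical.

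The 75th percentile of the probe signal lay between 768.9 and 1103 on the 8 arrays, and between 80.8% and 84.6% of probes were well above background. Markers of ovarian cells were present on all 8 arrays, such as Inha and Foxl2 of granulosa cells and Zp3 of the oocyte. Several genes that gonadotropins are known to control moved opposite to what is known of PMSG. Cyp11a1, the enzyme that starts steroid synthesis, had a log2 difference of -3.36 (PMSG label minus control label), and Amh, the anti-Mullerian hormone of small follicles, was higher by 3.03 (limma adjusted p = 2.32e-04 and 2.61e-04). Groups were taken from the sample titles, so every direction below refers to the label of an array.

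Long-chain fatty acids enter mitochondria as carnitine esters, which Cpt1a makes at the outer membrane and Cpt2 turns back into acyl-CoA at the inner membrane. Each round of beta-oxidation then begins with an acyl-CoA dehydrogenase, of which Acadvl, Acadl and Acadm take very long, long and medium chains, and for long chains the remaining steps are carried out by the trifunctional protein. PPAR alpha and PPAR gamma are lipid-activated receptors that bind DNA together with a retinoid X receptor. PPAR alpha is known for switching on oxidation genes in liver and heart, and Pparg, the master gene of fat cells, is known in the rat ovary mainly from granulosa cells.

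Of the 9 genes, 4 were lower in arrays labelled PMSG and 0 were higher (limma, adjusted p under 0.05 over 25303 probes). The 4 were Cpt1a, Cpt2, Hadha and Hadhb, whose signals stood at 54.6%, 63.2%, 64.5% and 67.5% of the level in arrays labelled control. The 2 receptor genes and the 3 dehydrogenase genes did not pass. Over all 21922 genes tested, each by its brightest probe, 34.5% passed in either direction, 16.5% lower and 18.0% higher, and under median centring 21.6% were lower and 11.8% higher. Among the 9 genes 44.4% passed, a share near that background, so the count is no result about these genes as a group. By probe 5 of 10 passed, against 34.2% of all probes. The values of the 2 labels did not overlap for the same 4 genes and 5 probes, against 37.0% of all genes and 36.6% of all probes. None of the 9 differed by 2-fold, which 14.1% of all genes did. The median log2 difference was -0.17 over the 9 genes (-0.33 under median centring to -0.09 under quantile normalization) and 0.12 over all genes. Median centring of the arrays moved the median over all probes from 0.11 to -0.05, and quantile normalization to 0.03.

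**Figure D1:**
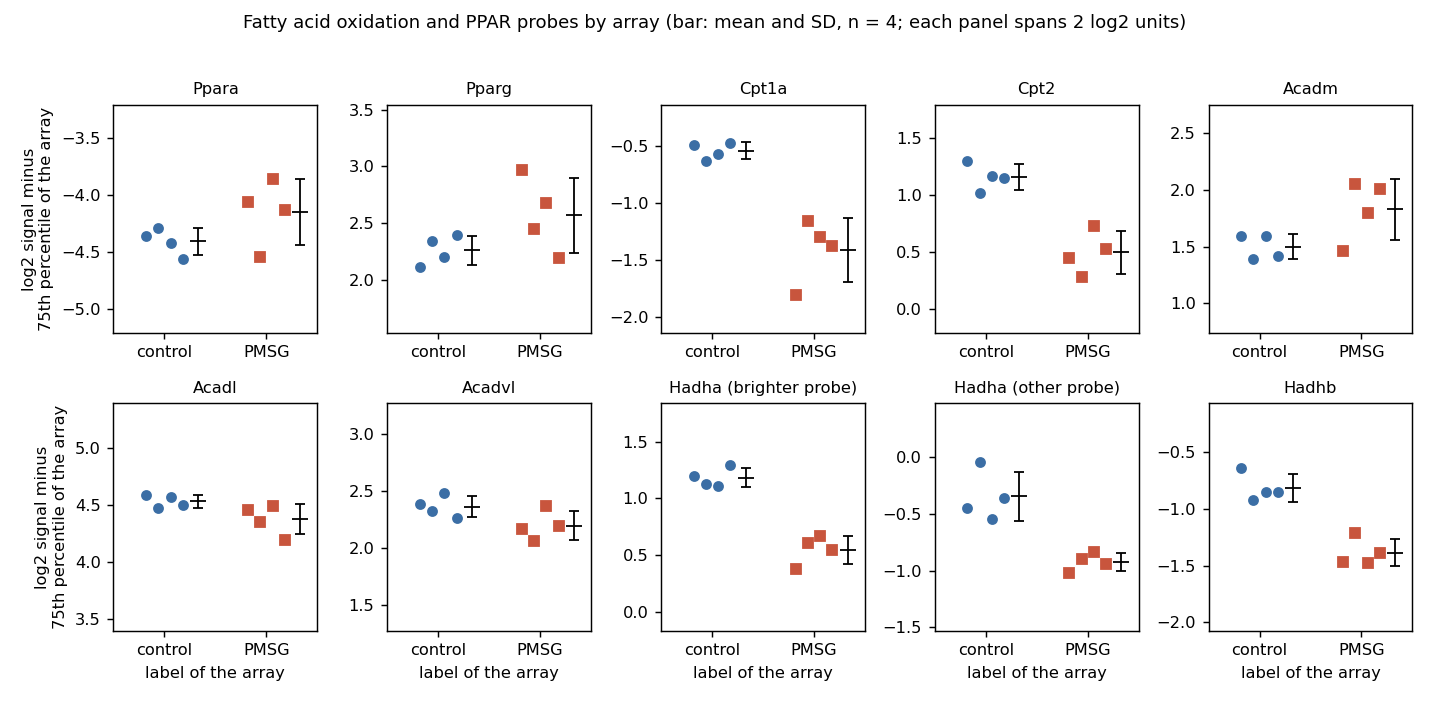
Values of the 10 probes on each array, as log2 signal after subtraction of that array's 75th percentile (0 is a probe at the percentile); points are arrays, bars give mean and SD of 4 arrays, and each panel spans 2 log2 units. Arrays labelled PMSG lie below all arrays labelled control for Cpt1a, Cpt2, both Hadha probes and Hadhb, and overlap them for the other 5 genes.

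In the carnitine shuttle, Cpt1a and Cpt2 were both lower. Cpt1a, the controlled entry step, had scaled log2 levels of -0.49, -0.62, -0.57 and -0.47 on control-labelled arrays 1 to 4, and of -1.81, -1.16, -1.30 and -1.38 on PMSG-labelled arrays 1 to 4. The groups did not overlap, and the arrays labelled PMSG spread more widely, with array 1 the lowest. The means were -0.54 ± 0.07 and -1.41 ± 0.28 (SD, n = 4 each), a log2 difference of -0.87 (SE 0.15, 95% interval -1.21 to -0.54, limma adjusted p = 0.00258), or 1.83-fold lower. The probe maps to chromosome 1, 205912066 to 205912125, of the rat build rn4.

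Cpt2, the inner membrane partner, stood at 1.30, 1.02, 1.17 and 1.15 on arrays labelled control and at 0.45, 0.28, 0.73 and 0.53 on arrays labelled PMSG. Again all 4 arrays labelled PMSG lay below the lowest control-labelled array. The difference was -0.66 (SE 0.12, 95% interval -0.94 to -0.38, limma adjusted p = 0.00393; probe on chromosome 5, 129007858 to 129007917, rn4), or 1.58-fold. The change of Cpt1a exceeded that of Cpt2 by 0.21, with an interval for Cpt1a minus Cpt2 from -0.65 to 0.22, and this was not larger than the spread (exact two-sided permutation test, p = 0.314, adjusted over 5 pairs 0.762).

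Other genes of fatty acid activation and entry did not move in 1 direction. Of 11 tested, 3 were lower and 2 higher, or 45.5% in all against 34.5% of all genes, with a median log2 difference of 0.49. That median was 0.19 without control array 2, 0.24 under quantile normalization and normexp, 0.20 for probes above background on every array, and -0.18 within slide row 2. Slc25a20, the carrier that brings acylcarnitine across the inner membrane between the 2 transferases, fell by 0.62 (SE 0.10, limma adjusted p = 0.00192), and Acsl4, a ligase that prefers arachidonic acid, fell by 1.40 (SE 0.12, limma adjusted p = 1.88e-04). The third that fell was Crat, the carnitine acetyltransferase, by 0.37. The other carnitine palmitoyltransferase genes rose, Cpt1b of muscle by 0.66 and Cpt1c of the brain by 0.80 (limma adjusted p = 0.00665 and 0.0119). Both missed the threshold under median centring (0.0685 and 0.0635).

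The acyl-CoA dehydrogenases did not pass. Acadm stood at 1.59, 1.39, 1.60 and 1.42 on arrays labelled control and at 1.47, 2.05, 1.80 and 2.01 on arrays labelled PMSG (chromosome 2, 251867002 to 251867061, rn4). Only PMSG array 1 overlapped the control range. The difference was 0.33 (SE 0.15, 95% interval -0.0023 to 0.67, limma adjusted p = 0.112), and without PMSG array 1 it passed, at 0.45 (adjusted p = 0.0259).

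Acadl stood at 4.59, 4.47, 4.58 and 4.50 on arrays labelled control and at 4.46, 4.36, 4.50 and 4.20 on arrays labelled PMSG (chromosome 9, 65613235 to 65613294, rn4). The groups overlapped, and the log2 difference was -0.16 (95% interval -0.38 to 0.07, limma adjusted p = 0.238). Under median centring it was -0.33 and passed (0.0298). Acadvl, at 2.39, 2.32, 2.48 and 2.26 against 2.16, 2.06, 2.37 and 2.19, had a difference of -0.17 (95% interval -0.40 to 0.07, limma adjusted p = 0.235; chromosome 10, 56856347 to 56856406, rn4) and passed under none of 18 alternatives.

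Changes of the dehydrogenases were set against each other within arrays. Acadl minus Acadm changed by -0.49 (95% interval -0.95 to -0.03 with a pooled SD, exact two-sided permutation p = 0.0571, adjusted 0.286). Acadvl minus Acadl changed by -0.0071 (interval -0.20 to 0.18, exact p = 1). With 4 arrays against 4 the smallest p is 0.0286, which is 0.143 for a lone pair after adjustment, so a single pair could not have passed, and 0 of the 5 pairs had a p under 0.05 before adjustment.

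The RefSeq promoter table (build GRCr8, 250 bases before to 50 after a start site) held 9 windows for 8 of the 9 genes, with 2 for Pparg and none for Acadl. PPAR and retinoid X receptor pairs are known to bind AGGTCANAGGTCA, a direct repeat of AGGTCA with 1 base between the copies. This motif was searched on both strands, as were AGGTCA alone and AGGTCA preceded by TCA or by CAA; the windows and motifs were picked after values of these genes were known. Allowing 1 mismatch, the direct repeat was found in 1 of the 9 windows, that of Acadvl, and in 0.439% of all 33469 windows. AGGTCA alone was in the windows of Acadvl and Hadhb, and in 16.2% of all windows; in Acadvl 1 of its 2 copies lies within the direct repeat. The copies preceded by TCA and by CAA were in 0 of the 9 windows, and in 0.433% and 0.424% of all windows. The 100 bases before the Acadvl start site (chr10:55236706-55236805, GRCr8, minus strand) are shown because they hold the only such match among these genes, in capitals, from 17 to 5 bases before the start:
Acadvl: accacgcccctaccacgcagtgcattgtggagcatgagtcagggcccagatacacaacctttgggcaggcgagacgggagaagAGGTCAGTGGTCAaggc
Acadvl itself did not pass the test, whereas the 4 genes that did had no match of this kind in their windows. A match describes letters only, and a missing match says nothing about binding elsewhere.

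Both subunits of the trifunctional protein were lower. Hadha, which carries the hydratase and long-chain hydroxyacyl-CoA dehydrogenase, was measured by 2 probes, and Hadhb, which carries the thiolase, by 1. The probes are printed because the 2 for Hadha sample separate parts of the transcript; each is 60 bases long and has 1 reading frame without a stop codon:
Hadha, brighter probe: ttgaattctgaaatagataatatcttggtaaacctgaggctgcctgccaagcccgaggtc
Hadha, other probe: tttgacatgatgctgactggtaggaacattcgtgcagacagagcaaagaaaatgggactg
Hadhb: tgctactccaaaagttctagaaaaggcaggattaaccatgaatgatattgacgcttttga

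The brighter Hadha probe stood at 1.20, 1.12, 1.11 and 1.29 on arrays labelled control and at 0.38, 0.61, 0.67 and 0.54 on arrays labelled PMSG. The gap between the groups was wider than the spread within either. The means were 1.18 ± 0.08 and 0.55 ± 0.12 (SD, n = 4 each), a log2 difference of -0.63 (SE 0.10, 95% interval -0.86 to -0.41, limma adjusted p = 0.00194). Its 60 bases span 564 bases of the rn4 sequence 6_random, from 467174 to 467737. The other Hadha probe, with a single spot per array, lies on 6_random from 452613 to 452672. It read -0.45, -0.04, -0.54 and -0.36 against -1.02, -0.90, -0.84 and -0.94, a difference of -0.58 (SE 0.12, limma adjusted p = 0.00850), so both probes were lower by similar amounts.

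Hadhb stood at -0.64, -0.93, -0.86 and -0.85 on arrays labelled control and at -1.47, -1.22, -1.47 and -1.39 on arrays labelled PMSG. The groups did not overlap. The difference was -0.57 (SE 0.11, 95% interval -0.81 to -0.32, limma adjusted p = 0.00436; chromosome 6, 26144500 to 26144559, rn4). Hadha minus Hadhb changed by -0.07 (95% interval -0.30 to 0.17, exact two-sided permutation p = 0.457, adjusted 0.762).

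The 2 subunit genes face away from each other. In the RefSeq table their start sites lie on opposite strands with 300 bases between them, and their promoter windows share 200 bases, so any element there belongs to both windows. That stretch (chr6:31907551-31907750, GRCr8, plus strand, reading towards Hadha) is shown because it lies in both windows:
Hadha and Hadhb: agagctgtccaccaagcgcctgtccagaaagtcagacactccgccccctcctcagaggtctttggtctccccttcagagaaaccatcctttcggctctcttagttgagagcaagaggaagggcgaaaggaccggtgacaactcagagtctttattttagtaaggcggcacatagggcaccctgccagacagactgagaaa
It holds no AGGTCANAGGTCA at up to 2 mismatches. The AGGTCA of the Hadhb window lies outside it, from 43 to 48 bases after the Hadhb start. Whether the shared stretch has a part in the levels of either gene was not tested.

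**Figure D2:**
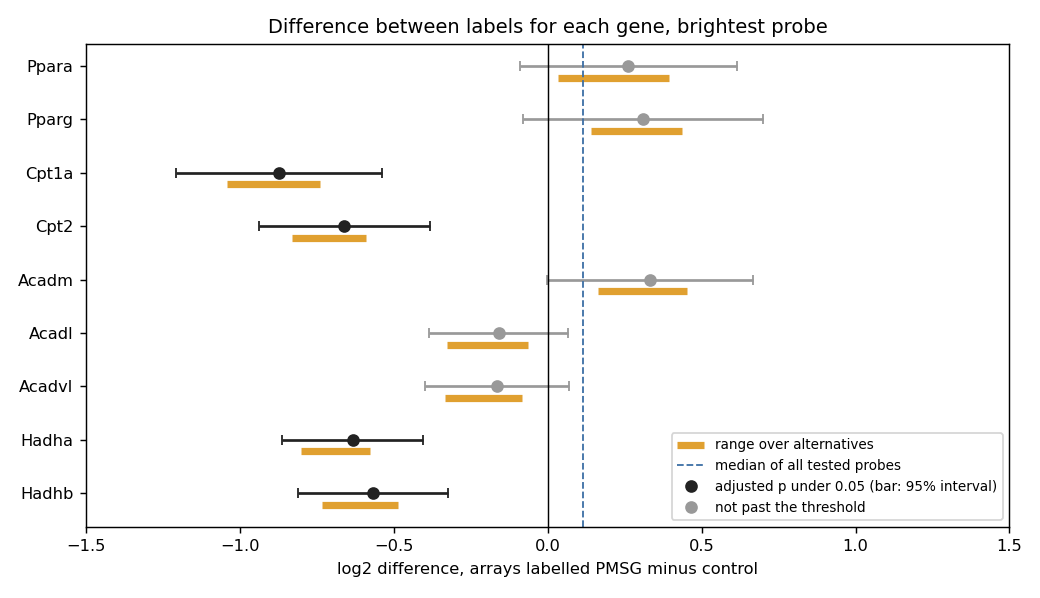
Log2 difference between labels for the brightest probe of each gene; points with bars are estimates with 95% intervals from limma (black, adjusted p under 0.05; grey, above it), orange bars span the estimates over 18 alternatives, and the dashed line is the median of all tested probes at 0.11. Cpt1a (-0.87), Cpt2 (-0.66), Hadha (-0.63) and Hadhb (-0.57) lie below 0 with their whole orange bars, and the intervals of the other 5 genes include 0.

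The 2 receptor genes did not pass the threshold. Ppara was dim, with unscaled signals from 44.0 to 61.9, and stood at -4.36, -4.29, -4.42 and -4.56 on arrays labelled control and at -4.06, -4.54, -3.86 and -4.13 on arrays labelled PMSG. PMSG array 2 lay within the control range and the other 3 above it. The difference was 0.26 (SE 0.15, 95% interval -0.09 to 0.61, limma adjusted p = 0.218; chromosome 7, 123807031 to 123807090, rn4), and without PMSG array 2 it passed, at 0.39 (0.0442).

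Pparg was bright, with unscaled signals from 4508 to 7670, and stood at 2.11, 2.34, 2.20 and 2.39 on arrays labelled control and at 2.96, 2.45, 2.68 and 2.19 on arrays labelled PMSG. The lowest of these, PMSG array 4, fell within the control range. The difference was 0.31 (SE 0.17, 95% interval -0.08 to 0.70, limma adjusted p = 0.191; chromosome 4, 151617128 to 151617187, rn4), and without PMSG array 4 it passed, at 0.44 (0.0439). Pparg minus Ppara changed by 0.05 (95% interval -0.44 to 0.54, exact two-sided permutation p = 0.857).

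Of 13 tested partner and coregulator genes of the receptors, 4 were higher and 1 was lower. This is 38.5% in all against 34.5% of all genes, a share near the background. Their median log2 difference was 0.42 (0.18 under quantile normalization). The retinoid X receptor gene Rxrb rose by 0.75 (SE 0.11, limma adjusted p = 0.00134), from -0.14 ± 0.13 to 0.61 ± 0.13 (SD, n = 4 each). Rxra rose by 0.62 (limma adjusted p = 0.0185), but missed the threshold under quantile normalization and without PMSG array 1, in a range of adjusted p up to 0.0745, and its difference was 0.33 under normexp and 0.36 under quantile normalization. The coactivator gene Ncoa1 rose by 0.55. Esrra, an orphan receptor known to drive mitochondrial oxidation genes, was the one that fell, by 0.72 (SE 0.09, limma adjusted p = 7.34e-04), from 2.19 ± 0.07 to 1.48 ± 0.09 (SD, n = 4 each). The coactivator gene Ppargc1a was well above background on 1 of 8 arrays and was not tested, and Sirt1 was not analysed here.

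Among 13 tested genes known as PPAR targets, 4 were lower and 0 higher, or 30.8% in all. Over all genes 34.5% passed, 16.5% lower and 18.0% higher. The targets had a median log2 difference of -0.16. The median was -0.0084 without PMSG array 2, -0.03 without control array 1, -0.08 without PMSG array 4, -0.03 under quantile normalization, -0.33 under median centring and 0.13 within slide row 1. Vnn1, a pantetheinase, fell by 1.23 (SE 0.13, limma adjusted p = 3.65e-04). Acot1, an acyl-CoA thioesterase, fell by 1.26 (SE 0.36, limma adjusted p = 0.0273), with overlapping groups, and passed under 12 of 18 alternatives. The other 2 that fell were Plin2, a lipid droplet coat protein, and Ucp2, a mitochondrial carrier. The 9 targets that did not pass lay on both sides of 0, from Ucp3 at -0.63 to Cyp4a1 at 0.89. Angptl4 was one of them, with a difference of -0.16 and a wide 95% interval from -0.78 to 0.45 (limma adjusted p = 0.648). Pdk4 was well above background on 2 of 8 arrays, both labelled PMSG, and was not tested.

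Fat cells are a further source of Pparg, and adipocyte markers differed strongly between arrays of the same label. Of 10 such markers 2 were higher in arrays labelled PMSG, Cidea and Ucp1, and 0 were lower, against 18.0% and 16.5% of all genes. All 10 were measured above background. Their summed signal, in multiples of each array's 75th percentile, ran from 10.2 to 84.5 on arrays labelled control and from 29.3 to 94.0 on arrays labelled PMSG. Adipoq, the adiponectin gene, stood at 2.88, 1.82, 4.16 and 2.75 on control-labelled arrays 1 to 4, low on array 2 and high on array 3. Pparg did not take this order on the control-labelled arrays, with 2.34 on array 2 and 2.20 on array 3. On arrays labelled PMSG both genes were lowest on array 4, Adipoq at 2.98 and Pparg at 2.19. There Adipoq was highest on array 3, at 4.19, and Pparg on array 1, at 2.96. Acsl1, a fatty acyl-CoA ligase, stood at 3.06, 1.83, 4.15 and 2.88 on control-labelled arrays 1 to 4, with array 2 again the lowest and array 3 the highest. The part of fat cells in the levels of Pparg was not tested.

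**Figure D3:**
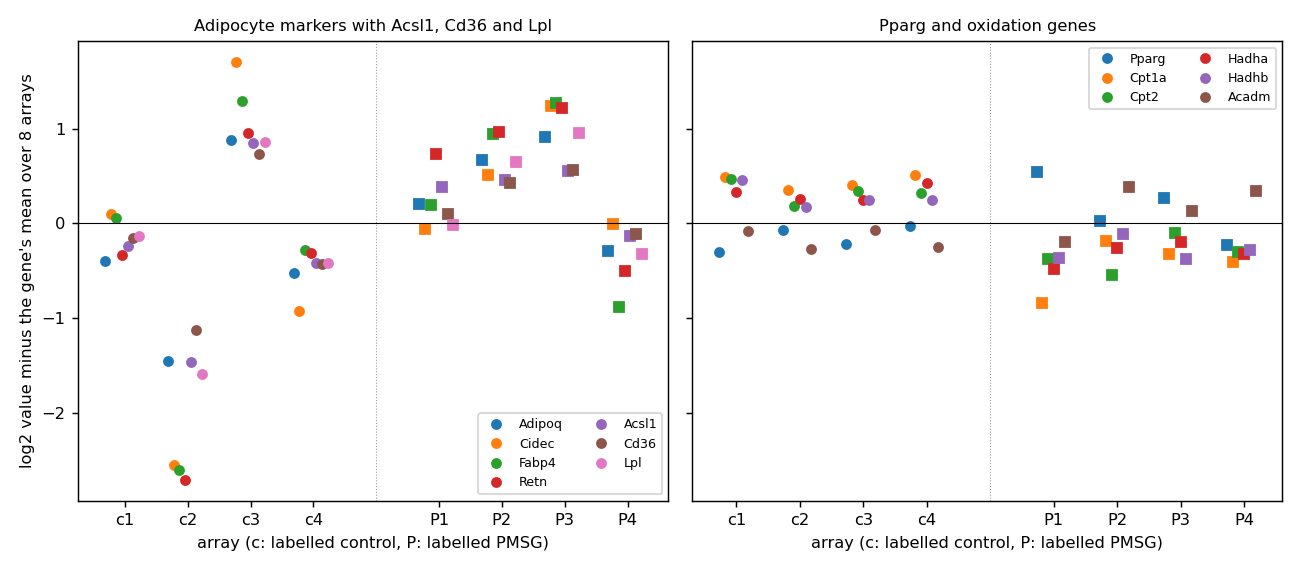
Log2 values minus each gene's mean over the 8 arrays, for 4 adipocyte markers with Acsl1, Cd36 and Lpl (left) and for Pparg with 5 oxidation genes (right); c1 to c4 are arrays labelled control, P1 to P4 arrays labelled PMSG, and the genes on the left were picked after their values were seen. On the left control array 2 is lowest and control array 3 high for all 7 genes, while on the right the control-labelled arrays lie close together and Cpt1a, Cpt2, Hadha and Hadhb are lower on all 4 arrays labelled PMSG.

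The remaining enzymes of mitochondrial oxidation were mixed, with 5 of 14 lower and 2 higher, or 50% in all against 34.5% of all genes. Their median log2 difference was -0.22 (-0.39 under median centring to -0.12 under quantile normalization). Acaa2, the thiolase that ends the cycle for shorter chains, fell by 1.05 (SE 0.12, limma adjusted p = 4.68e-04). Etfdh, which passes electrons from all acyl-CoA dehydrogenases to ubiquinone, fell by 0.74 (SE 0.12, limma adjusted p = 0.00204). The other 3 that fell were Etfa, a subunit of the electron carrier, Echs1, the short-chain hydratase, and Decr1, a dienoyl-CoA reductase. Decr1 fell by only 0.30 and lay close to the threshold (limma adjusted p = 0.0488). The number lower in this list was 4 under quantile normalization and with the row as a block, and 7 under median centring. Acad10 and Acad11, less studied dehydrogenase relatives, rose by 0.97 and 0.56 (limma adjusted p = 0.00407 and 0.0161), Acad11 not under median centring (0.0972).

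Control of Cpt1a runs through malonyl-CoA, its inhibitor. Of 9 genes around malonyl-CoA and AMP-activated protein kinase, 2 were lower and 1 higher, or 33.3% in all against 34.5% of all genes. Their median log2 difference was -0.29 (-0.46 under median centring, -0.09 under normexp, -0.19 without PMSG array 2). Mlycd, the decarboxylase that removes malonyl-CoA, fell by 0.80 (SE 0.10, limma adjusted p = 6.92e-04), from 3.00 ± 0.06 to 2.20 ± 0.13 (SD, n = 4 each). Acacb, the mitochondrial acetyl-CoA carboxylase that makes malonyl-CoA, rose by 0.61 (limma adjusted p = 0.0104) but missed the threshold under quantile normalization and median centring, with adjusted p up to 0.177; its difference was 0.31 under normexp and 0.34 under quantile normalization. Prkaa1, a catalytic subunit of the kinase, fell by 0.52 (limma adjusted p = 0.00995) and missed it under normexp background correction, at -0.23 (0.0842).

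Of 15 genes of peroxisomal oxidation, 2 were lower and 1 higher, or 20% in all against 34.5% of all genes. Their median was -0.03, and its sign changed with the setting (-0.20 under median centring to 0.04 under normexp, and 0.02 without control array 4). Ehhadh, the peroxisomal bifunctional enzyme, and Phyh, which starts the breakdown of phytanic acid, fell by 0.78 and 0.66 (limma adjusted p = 0.0161 and 0.00670), Ehhadh by 0.32 under normexp (0.0469). Abcd3, a transporter of the peroxisomal membrane, rose by 0.98 (limma adjusted p = 0.00128).

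Of only 4 genes of ketone body handling, 3 were lower and 0 higher, with a median of -0.88. This is 75% lower, against 16.5% of all genes. Bdh1, the mitochondrial hydroxybutyrate dehydrogenase, fell by 1.71 (SE 0.13, limma adjusted p = 1.11e-04). Acat1, the mitochondrial acetoacetyl-CoA thiolase, fell by 0.73 (SE 0.16, limma adjusted p = 0.00861). Over the 7 lists together 20 of 79 tested genes were lower and 10 higher, or 38.0% in all against 34.5% of all genes, a share near the background. Their median was -0.10 (-0.27 under median centring to -0.05 under normexp) against 0.12 over all genes. Under median centring 23 were lower and 4 higher, a setting in which the share of all genes moved the same way.

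**Figure D4:**
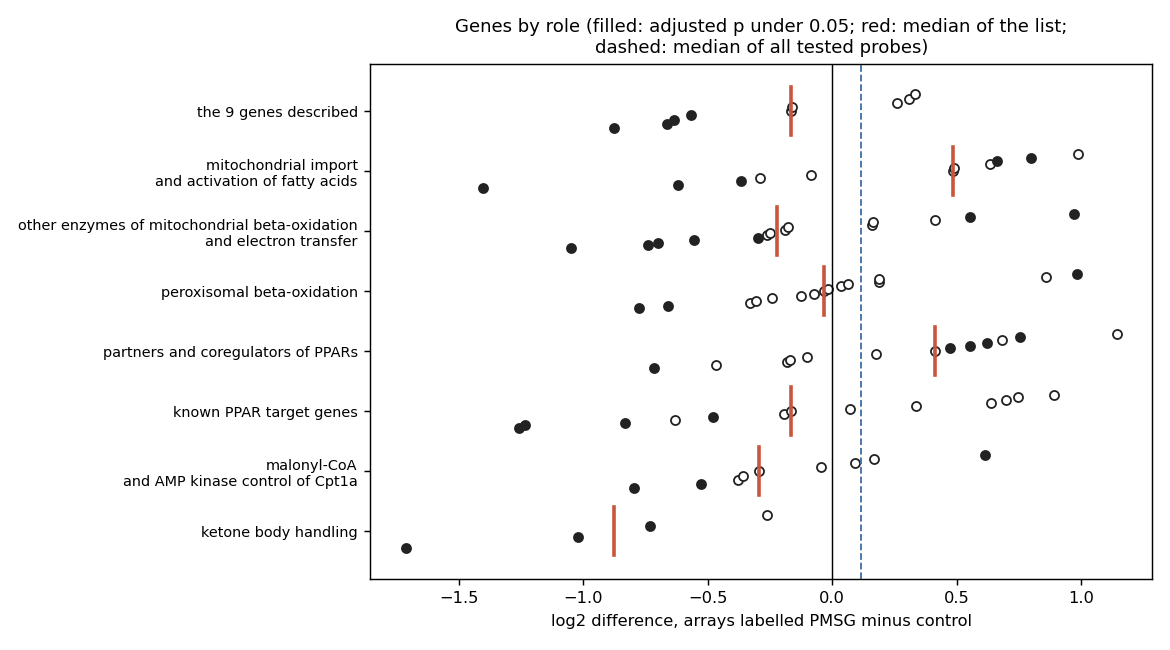
Log2 difference between labels for each tested gene, by role; filled points passed limma's adjusted p of 0.05, open points did not, red bars are list medians and the dashed line is the median of all tested probes at 0.11. Ketone body handling has the lowest median (-0.88), the lists for import (0.49) and PPAR partners (0.42) the highest, and called genes lie on both sides of 0 in 5 of the 8 rows.

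Genes with a profile over the 8 arrays most like those of Cpt1a and Cpt2, the 2 with the largest differences, were sought among all tested genes by the root mean square difference of centred log2 values. For Cpt1a these were Rnd1 (0.06), Gas6 (0.07) and Cmtm6 (0.07). For Cpt2 they included Mecr (0.05) and the transcript TC590734 (0.05).

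All arrays were on 1 slide, in 2 rows that each held 2 arrays of either label. Within row 1 the log2 differences of Cpt1a, Cpt2, Hadha and Hadhb were -0.68, -0.58, -0.57 and -0.46, and within row 2 they were -1.07, -0.75, -0.69 and -0.68. All 4 kept their direction in both rows, and with the row as a block their limma adjusted p-values ran from 0.00324 for Hadha to 0.00884 for Hadhb.

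Markers of several cell types moved with the labels. All 8 oocyte markers were higher in arrays labelled PMSG, with summed signals of 3.37 to 5.92 in control and 12.0 to 24.2 in PMSG, as were 5 of 7 markers of oviduct and surface epithelium (15.1 to 20.6 and 27.6 to 41.7) and 4 of 8 of macrophages and leukocytes (7.58 to 9.48 and 11.7 to 13.3). Lower were 4 of 7 theca and luteal markers, with 1 higher (272.6 to 308.8 and 134.0 to 215.9), and 3 of 7 endothelial markers, with 1 higher (20.2 to 23.8 and 16.8 to 18.3). The 4 theca and luteal markers that fell were Star, Cyp11a1, Lhcgr and Ptgfr. Of the theca cell products Insl3 and Cyp17a1, Insl3 was the 1 that rose, by 2.60, and Cyp17a1 did not pass (-0.22). Granulosa markers had 1 of 7 lower and 2 higher (124.8 to 219.5 and 121.7 to 155.3), and striated muscle markers had 1 of 7 lower and 2 higher (0.875 to 1.66 and 1.05 to 2.76). For comparison, 16.5% of all genes were lower and 18.0% higher. Such a sum of signals is weighted towards bright probes. Ptgfr, a dim theca and luteal marker, passed the background filter on 4 of the control-labelled arrays and on 0 of the PMSG-labelled ones. In whole ovaries, fewer cells of a type and less RNA per cell cannot be told apart, and the part of these cell types in the lower levels of Cpt1a, Cpt2, Hadha and Hadhb was not tested.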

How the data were processed

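Spot intensities were extracted with Agilent Feature Extraction 11.5.1.1, per the file headers, with detrending and surrogate values for spots not above background; probe coordinates are on rn4. The authors also deposited log2 values, which by comparison with the scanner files are scaled to the 75th percentile of the array, with no centring by probe (column medians -3.21 to -2.82); these served as an alternative. Here log2 processed intensity was averaged over usable spots of a probe (outlier and control spots left out) and each array's 75th percentile was subtracted, leaving 30350 of 30367 probes. Tested were the 25303 probes well above background (at least 0.5 of their spots) on at least 4 of 8 arrays. The 2 labels entered a limma fit (version 3.58.1, R 4.3.3) without covariates, with Benjamini-Hochberg adjustment and a threshold of 0.05. The brightest probe stood for a gene. In simulated data of 25303 probes, log2 changes of 0.5, 1 and 2 were put into 66, 67 and 67 probes. There limma called 59.7% of changes of 1 and 0% of changes of 0.5, with 3 false calls. The share of changed probes was far below the 34.2% called in the arrays, which made the adjusted threshold stricter in the simulation. From each of the 7 pathway lists the 2 called genes per direction with the largest difference are named, beside other list genes given for context after their values were seen. A few genes that these rules name are not reported here. Genes, lists, pairs and markers were chosen with earlier results of these data known. Cyp19a1, Ovgp1 and Sirt1 were not analysed here. Alternatives for the list genes were added after seeing the data; the others, on scaling, background, filter, blocks, array weights, probes per gene and arrays left out, were listed earlier. The number of arrays limits the precision. Replicate numbers were not used as pairs in the main fit.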

Additional observations from a re-analysis of the deposited data

Results flagged for a closer look

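Among 62 groups of 4 values, those of the 10 probes and of the named genes of the lists, 3 had 1 array far from the other 3, measured as the gap to the nearest array over the range of the group. Chance gives about 1 in 20, here 3.10. Control array 2 stood apart for Phyh (gap 0.966 of the range), at -1.32 against -1.17 on each of the others, and for Rxrb (gap 0.873), at 0.04 against -0.22 to -0.19. Control array 4 stood apart for Acacb (gap 0.898), at -5.41 against -5.18 to -5.15. None of the 9 fatty acid oxidation and PPAR genes was among them.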

How the results depend on the processing

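Cpt1a, Cpt2, Hadha and Hadhb kept their direction and passed under all 18 alternatives that used more than 1 slide row, with adjusted p up to 0.0164, 0.0152, 0.0171 and 0.0283. The number of the 9 genes that passed was 4 or 5 under these alternatives, and 4 to 5 when 1 array was left out. The replicate block gave 7346 probes, 4 of the 9 genes and 29 genes of the lists, against 8658, 4 and 30 without it. Across probes, same-numbered arrays had deviations from their group means with r of 0.0444, 0.0361, 0.183 and -0.0192. Differently numbered arrays were not compared, so these values do not decide whether the numbers pair the arrays. Within slide row 1, with 2 arrays against 2, limma called 3351 probes, 0 of the 9 genes and 12 list genes; within slide row 2 it called 0 probes, 0 of the 9 genes and 0 list genes. Without adjustment 9226 and 6015 probes and 4 of the 9 genes in each row, with 36 and 28 list genes, had a p under 0.05; these fits have fewer arrays. Leaving out 1 array gave 6552 (without control array 4) to 11382 probes (without PMSG array 4) and 27 to 39 list genes. Of 540 refits of 30 genes 522 kept direction and call, 14 lost the call, 4 gained it and 0 changed sign. No pair passed under another scaling, normexp, the deposited values or the mean over probes, and the filter does not enter these values; without 1 array the pairs were computed as values with no test, since an exact test there could not pass, and no block fit was run for them. Changes near 0.5 on the log2 scale were not recovered in simulated data, where few probes were changed and the adjusted threshold was therefore stricter. In the arrays some smaller differences passed, such as that of Crat at -0.37. A gene that did not pass may still differ within its 95% interval, for Acadl -0.38 to 0.07 and for Ppara -0.09 to 0.61. The alternatives for list genes were chosen after seeing the data.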

Other observations

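Several lipid genes followed one order of the control-labelled arrays, with array 2 lowest, array 3 highest and at least 1 log2 unit between them, a rule set after the values were seen. It held for 323 of 21922 genes (1.47%), for 7 of 10 adipocyte markers (Adipoq, Plin1, Cidec, Cidea, Fabp4, Retn and Cfd) and for 7 of 79 genes of the lists (Acsl1, Cd36, Abcd2, Rxrg, Ucp3, Adipoq and Lpl), where Adipoq is in both. It held for 0 of the 9 fatty acid oxidation and PPAR genes, which at 1.47% of all genes is no result about them. Macrophage markers Cd163 and Mrc1 and the epithelial marker Muc1 also had this order.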
